A study of Mus musculus with 6 samples.

Results

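Chd4 peaks of mouse neural stem cells labelled iKO were compared with those of cells labelled Ctrl, with 1 ChIP-seq library each. All peaks of both deposited lists were used, which came to 22448 of the 97783 peaks in the 6 lists of the series: 21294 in iKO and 1154 in Ctrl. Chromatin immunoprecipitation followed by sequencing (ChIP-seq) finds the stretches of DNA that a protein sits on. The cells were primary neural stem cells, taken from P0 (newborn) mouse cortex, kept proliferating in medium with EGF and bFGF and fixed with 1% formaldehyde. The iKO cells had the genotype mutant and received 4-OH-TAM (4-hydroxytamoxifen), whereas the Ctrl cells were wild type in plain growth medium, so that genotype and 4-OH-TAM cannot be told apart. The labels do not spell out iKO, which is read here as an inducible deletion of Seh1, as the series title names that deletion. What drives the deletion, how many animals were used and whether they were pooled is not stated in the labels. Chd4 was also profiled in cells labelled siSCR (2606 peaks) and siSeh1 (26935 peaks), both wild type in growth medium, which serve below only as a control of another experiment and as a perturbed list of it. A peak list holds no expression values, so neither the loss of Seh1 nor the cell type was checked by these data.

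Chd4 is an ATP-dependent chromatin remodeller and the motor subunit of NuRD, the complex named for nucleosome remodelling and deacetylation, which joins remodelling to histone deacetylation and acts at promoters and enhancers. In the developing cortex it is known to take part in the proliferation of progenitors and in the timing of neuronal differentiation. Seh1, encoded by Seh1l, is a subunit of the Y-shaped scaffold of the nuclear pore and also of the GATOR2 complex, which senses nutrients upstream of mTORC1.

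Most promoter windows with a Chd4 peak in iKO held the letters CCAAT, and 7 windows are shown before the values. They were chosen after their letters were seen, 5 for their motifs and the roles of their genes and 2 for their scores, and not by rank; the windows of Pdia4 and Insig1, of the same gene lists and with scores of 13.4 and 11.5, held CCAAT but no ERSE and no sterol element, respectively. Each is a RefSeq window of GRCm38.p6 on the strand of the gene, from 250 bases before to 50 bases after the annotated transcription start site (TSS, base 251 of the window). Capitals mark CCAAT, the core letters bound by the trimeric factor NF-Y, or its reverse complement ATTGG. In Hspa5 and Calr they also mark the endoplasmic reticulum stress response element (ERSE), which is CCAAT and CCACG separated by 9 bases. In Hmgcs1 they also mark TCACCCCAC, a sterol response element bound by Srebf factors. In Cenpf they also mark TTTGAA, the CHR element of cell cycle genes. In Denr and Upf1 they also mark GGGCGG, the GC box bound by Sp1 and Klf factors.
Hspa5, chr2:34771840-34772139, plus strand: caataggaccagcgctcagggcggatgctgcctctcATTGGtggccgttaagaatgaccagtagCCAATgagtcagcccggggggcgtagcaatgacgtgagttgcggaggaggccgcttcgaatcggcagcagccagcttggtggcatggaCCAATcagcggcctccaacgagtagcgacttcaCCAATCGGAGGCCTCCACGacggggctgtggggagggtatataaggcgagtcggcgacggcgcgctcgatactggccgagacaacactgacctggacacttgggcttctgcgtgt
Calr, chr8:84846882-84847181, minus strand: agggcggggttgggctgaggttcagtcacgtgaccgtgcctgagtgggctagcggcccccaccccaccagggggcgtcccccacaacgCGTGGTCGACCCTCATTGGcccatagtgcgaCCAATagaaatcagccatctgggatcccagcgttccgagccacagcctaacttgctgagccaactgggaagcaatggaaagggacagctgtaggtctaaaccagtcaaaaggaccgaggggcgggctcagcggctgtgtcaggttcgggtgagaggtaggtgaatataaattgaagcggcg
Hmgcs1, chr13:119690101-119690400, plus strand: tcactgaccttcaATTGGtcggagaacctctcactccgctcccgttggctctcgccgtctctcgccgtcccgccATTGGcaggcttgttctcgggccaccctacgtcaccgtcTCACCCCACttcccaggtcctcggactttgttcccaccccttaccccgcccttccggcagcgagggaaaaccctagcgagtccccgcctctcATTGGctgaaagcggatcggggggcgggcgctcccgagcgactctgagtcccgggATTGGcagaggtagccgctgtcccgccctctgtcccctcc
Ezh2, chr6:47594981-47595280, minus strand: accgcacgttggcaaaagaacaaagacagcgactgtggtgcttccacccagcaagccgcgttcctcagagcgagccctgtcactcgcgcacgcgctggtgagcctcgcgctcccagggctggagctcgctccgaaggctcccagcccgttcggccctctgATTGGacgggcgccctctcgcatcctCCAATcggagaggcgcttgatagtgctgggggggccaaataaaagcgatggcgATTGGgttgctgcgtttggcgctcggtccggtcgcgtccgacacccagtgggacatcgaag
Cenpf, chr1:189688037-189688336, minus strand: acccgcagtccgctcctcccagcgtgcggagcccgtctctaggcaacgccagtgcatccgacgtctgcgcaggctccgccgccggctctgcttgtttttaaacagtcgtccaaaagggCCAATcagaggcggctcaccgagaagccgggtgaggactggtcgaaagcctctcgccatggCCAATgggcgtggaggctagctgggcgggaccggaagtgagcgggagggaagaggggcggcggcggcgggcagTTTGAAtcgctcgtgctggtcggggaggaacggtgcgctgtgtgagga
Denr, chr5:123907025-123907324, plus strand: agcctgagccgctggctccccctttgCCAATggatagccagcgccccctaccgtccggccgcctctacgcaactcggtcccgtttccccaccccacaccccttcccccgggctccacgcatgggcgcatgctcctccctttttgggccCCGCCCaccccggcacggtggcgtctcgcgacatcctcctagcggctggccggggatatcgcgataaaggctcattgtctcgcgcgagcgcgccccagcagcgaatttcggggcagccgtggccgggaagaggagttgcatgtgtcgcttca
Upf1, chr8:70353230-70353529, minus strand: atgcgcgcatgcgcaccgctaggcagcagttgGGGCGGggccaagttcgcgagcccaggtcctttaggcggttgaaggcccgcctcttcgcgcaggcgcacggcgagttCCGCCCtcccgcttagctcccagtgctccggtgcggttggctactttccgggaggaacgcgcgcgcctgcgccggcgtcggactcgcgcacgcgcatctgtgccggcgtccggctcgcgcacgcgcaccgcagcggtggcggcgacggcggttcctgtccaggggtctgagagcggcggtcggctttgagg
The iKO summit lay at base 104 of the Hspa5 window, 37 bases from the middle of the nearest CCAAT. In Calr the summit lay at base 66 and 39 bases from the nearest CCAAT, in Hmgcs1 at base 87 and 10 bases away, in Ezh2 at base 112 and 51 bases away, and in Cenpf at base 113 and 8 bases away. Denr and Upf1 are shown because they had the highest promoter scores of the list and departed from this layout. The only CCAAT of the Denr window was 161 bases from the summit, and the Upf1 window held none.

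Per peak of the Ctrl list, iKO had 18.5. The lists also differed in kind. Of the 1154 iKO peaks of highest score 38.7% were annotated promoter-TSS, 38.5% intergenic, 16% intron and 5.11% exon, UTR or non-coding. Satellite repeats, from the detailed annotation, took 6.07% of them. Most of the Ctrl list lay in intergenic DNA, and larger shares of it than of iKO were in LINE elements and on chromosome X. Promoter peaks, with a summit within 1 kb of the nearest TSS, made up 5.96% of the iKO list (1270 peaks) and 0.607% of the Ctrl list (7 peaks). Peaks annotated promoter-TSS numbered 1033 in iKO and 1 in Ctrl. In exons, UTRs and non-coding transcripts lay 655 iKO peaks (3.08%) and 14 Ctrl peaks (1.21%). Introns held 30.2% of iKO and 23.7% of Ctrl peaks, and intergenic DNA 60.7% and 73.7%.

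Since list length and composition can move together, the 1154 iKO peaks of highest Peak Score were set beside the whole Ctrl list. Peak Score is the authors' own value per peak, of unstated scale, and was used only to rank peaks within a list. At equal length the promoter share of iKO was 41.4% against 0.607%, and the exon and UTR share 5.11% against 1.21%. The intron share turned direction, at 16% in iKO against 23.7% in Ctrl, and the intergenic share fell to 38.5%. The contrast also depended on the control. At full lengths the siSCR list had a promoter share of 15% (391 of 2606 peaks), above the 5.96% of iKO. Its intergenic share was 58.9%, below that of the full iKO list, and its intron share was 23.4%. The iKO and siSCR lists were also of unequal length. Among the 2129 highest iKO peaks the promoter share was 28.4%, above that of the siSCR list. The number of reads behind each list is not known, and intervals (95%, exact Clopper-Pearson) cover counting error only.

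**Figure D1:**
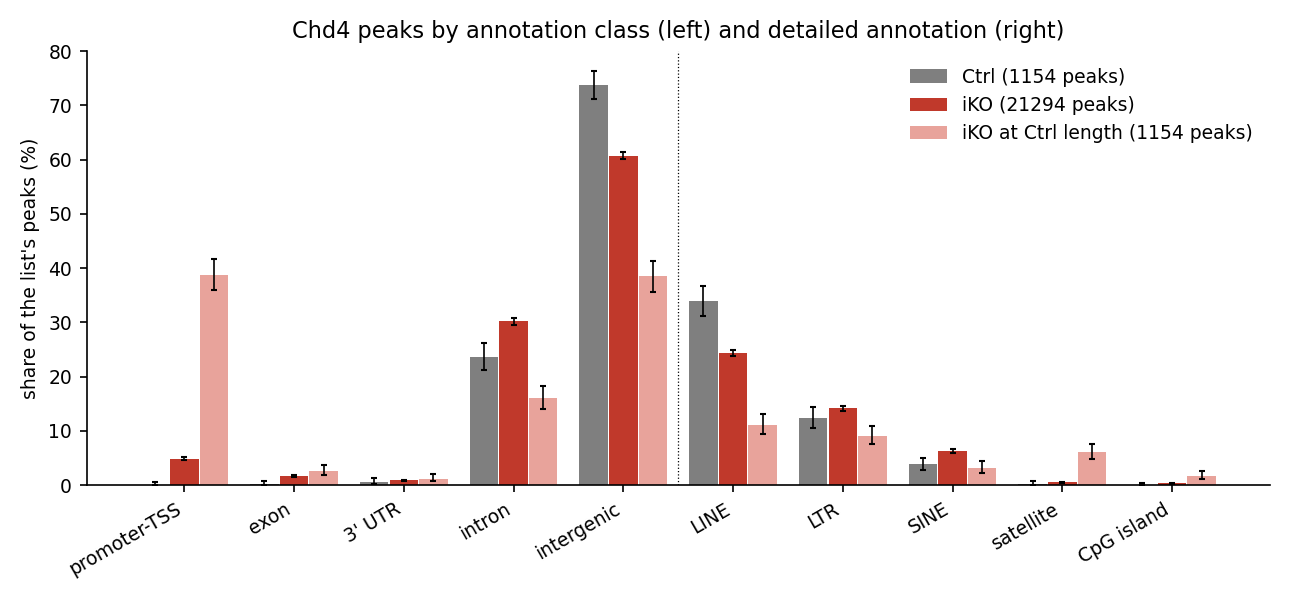
Share of each list's peaks (percent, vertical axis) by annotation class and, right of the dotted line, by detailed annotation, for Ctrl, iKO and the 1154 iKO peaks of highest score. Error bars are exact 95% binomial intervals for counting error. At equal length promoter-TSS peaks made up 38.7% of iKO and 0.0867% of Ctrl, and LINE peaks 11.1% and 33.9%.

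Promoter peaks were concentrated at the top of the iKO list. Of the 50 highest iKO peaks 20 were at promoters, of the 100 highest 51 and of the 500 highest 284; the same ranks of the Ctrl list held 0, 0 and 2. When the list was cut by score into 10 groups of equal size (deciles), the promoter share of iKO was 28.4% in the top decile, 6.01% in the next and 2.54% in the last. No Ctrl promoter peak was in the top 3 deciles of that list. The promoter peaks of Ctrl also lay elsewhere relative to the TSS. Among the 1270 iKO promoter peaks 67.1% (interval 64.4 to 69.7) were upstream, with a median position of -62 bp and quartiles of -153 and 49 bp. Of the 7 Ctrl peaks 1 was upstream, the median was 772 bp downstream, and none fell in the window from 250 bases before to 50 after the TSS. Within iKO the position changed with score. In 4 equal groups of the promoter peaks, from the highest to the lowest scores, 82.7%, 74.2%, 62.5% and 48.9% were upstream, with median positions of -77, -71, -59 and 10 bp. The siSCR promoter peaks lay at a median of -90 bp with 81.1% upstream.

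**Figure D2:**
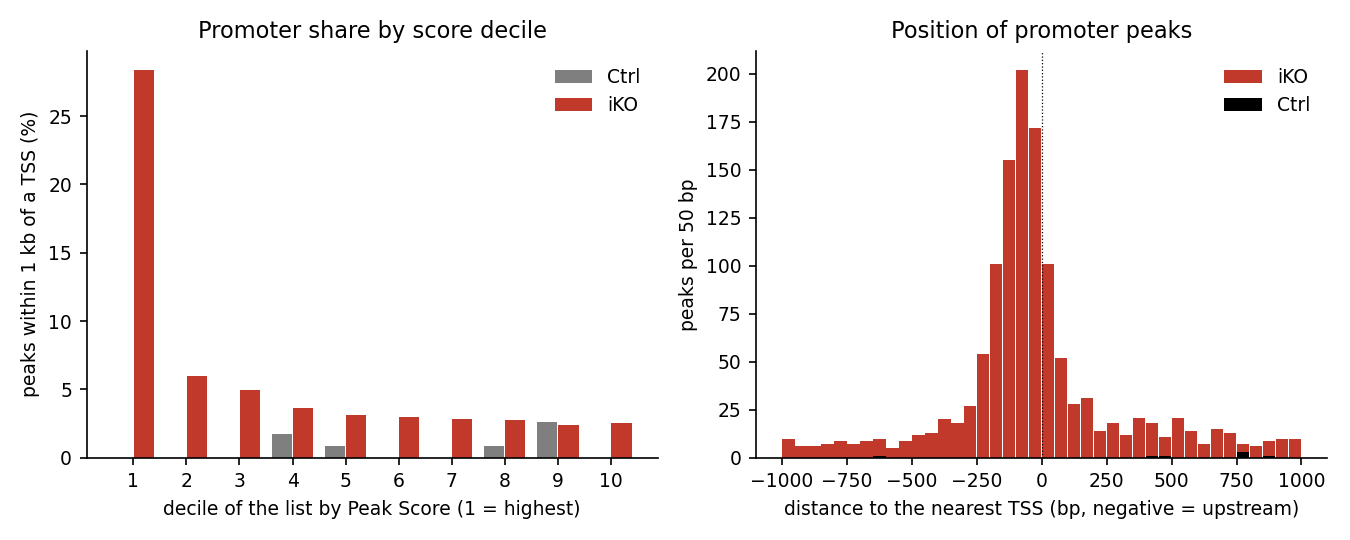
Left, percent of peaks within 1 kb of a TSS in each decile of the list by Peak Score (1 is the highest). Right, number of peaks per 50 bp by distance to the nearest TSS in bp, for iKO and Ctrl. The top iKO decile stands at 28.4%, and the 1270 iKO peaks gather just upstream of the TSS while the 7 Ctrl peaks are scattered.

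Most promoter windows with an iKO summit held CCAAT. Of the 1270 iKO promoter peaks 785 (61.8%) lay from 250 bp before to 50 bp after the nearest TSS. Promoter peaks outside the windows were not searched. Of 32851 promoter windows of RefSeq, 837 held an iKO summit and 0 held a Ctrl summit. Windows can overlap, so a summit may count in more than 1 of them. CCAAT occurred, on either strand, in 85.3% of the 837 (interval 82.7 to 87.6) and in 37.4% of all windows. In the 418 windows above the median score it occurred in 95.2% (92.7 to 97.1), and in the 419 at or below the median in 75.4% (71 to 79.5). Windows with 2 or more copies made up 80.4% above the median score, 44.6% at or below it and 11.7% of all windows. Windows with an iKO summit were also rich in CpG, with a median of 24 CpG per window against 7 in all windows, and a median GC content of 63.7% against 52.7%. The 9126 windows without an iKO summit that had at least 18 CpG, the lower quartile of windows with one, held CCAAT in 29.9%. The GC box behaved otherwise: it was in 77.4% of the iKO windows and 35.7% of all windows, but in 79.1% of the CpG-rich windows without a summit. The same CCAAT count was 93.1% in the 319 windows with a siSCR summit and 75.3% in the 1994 with a siSeh1 summit, so it was not particular to iKO.

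Where the window held CCAAT, the iKO summit lay close to it. The median distance from summit to the middle of the nearest CCAAT was 21 bases over 714 windows, and 76.6% were within 50 bases. Above the median score the distance was 18 bases (83.9% within 50), and at or below it 31 bases (67.4%). Windows above the median score also more often held 2 or more copies (80.4% against 44.6%), so score and copy number are not separated here. The distance expected without regard to the motif was not computed. To the nearest GC box the median was 36.5 bases over 648 windows, with 59.3% within 50. Of the other 10 motifs searched on both strands, CCGGAAG of ETS factors was in 14.6% of iKO windows, 8.86% of all windows and 19.5% of CpG-rich windows without a summit. TATAAA was in 3.94%, 13.6% and 4.05% of these. AAGATGGC of YY1 was in 4.78%, 2.75% and 4.61%. TTTGAA was in 11.5%, 17.9% and 7.35%. CACGTG, the E-box of Usf and Myc, was in 9.56%, 7.15% and 11.7%, and TGACGTCA of Creb and Atf in 1.91%, 1.79% and 3.84%. The ERSE was in 9 of the 837 windows (1.08%) against 0.119% of all windows. It was in 1.88% of the windows with a siSCR summit and 0.652% of those with a siSeh1 summit, so it was not particular to iKO. The remaining 3 were rare: TCACCCCAC in 0.717% of iKO windows and 0.551% of all, TTGCATCA of Atf4 in 0.478% and 0.895%, and GCGCA followed by TGCGC of Nrf1 in 1.08% and 0.971%. The ERSE contains CCAAT, so these 2 matches overlap by construction. A match describes the letters of a window and shows no binding of the factor.

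**Figure D3:**
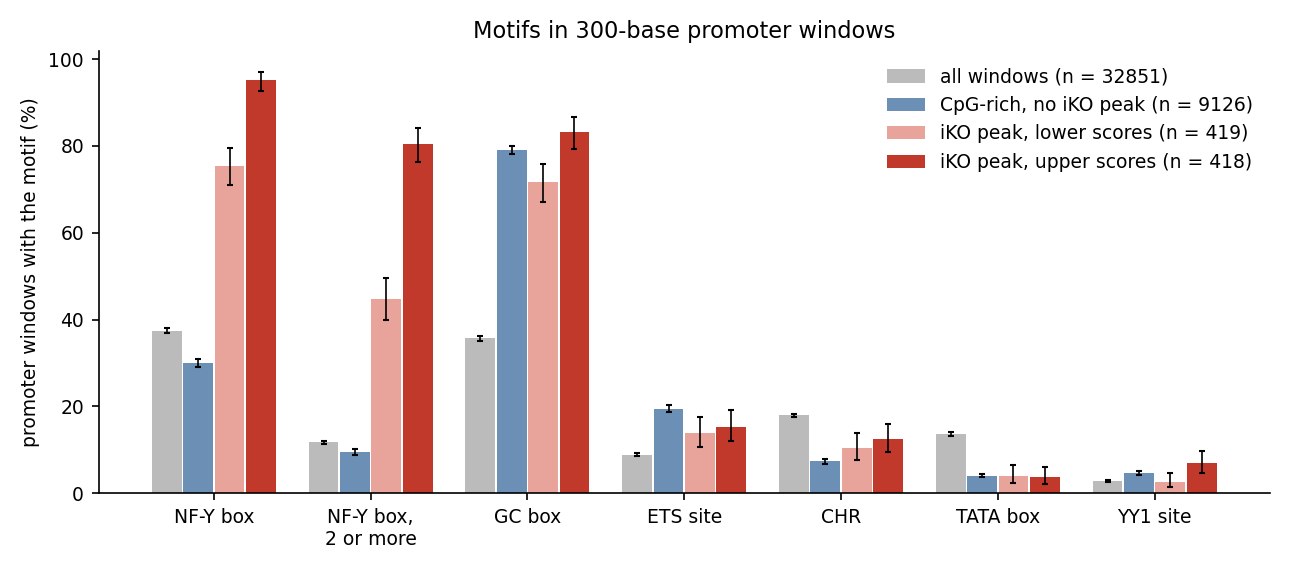
Percent of 300-base promoter windows holding each motif, for all windows, CpG-rich windows without an iKO summit, and windows with an iKO summit at or below and above the median score. Error bars are exact 95% binomial intervals. The NF-Y box, CCAAT, is in 95.2% of windows above the median score and 29.9% of CpG-rich windows without a summit, while the GC box is 83.3% and 79.1%.

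In iKO 1245 genes had a promoter peak and in Ctrl 7, with 0 in common. Of 21900 protein-coding genes the iKO list called 5.18% and the Ctrl list 0.0183%, against 1.63% in siSCR and 11.8% in siSeh1. The highest promoter peak of iKO was at Denr, which helps recycle ribosomes and restart translation, with a score of 28.5 at -61 bp. Upf1, the helicase of nonsense-mediated RNA decay, followed with 27.8 at -64 bp. Camta1, a calmodulin-binding transcription activator, had 26.7, Rps6ka5, a nuclear kinase downstream of ERK and p38, 23.2, and Tle4, a Groucho-type co-repressor, 22. Fam204a had 21.2. Hspa5, the chaperone BiP of the endoplasmic reticulum, had 19.6, and Rbm15, which guides RNA methylation, 19.5. Ehmt1, a histone H3 lysine 9 methyltransferase, had 19.2, Rab40c 18.8, Cks2, a partner of cyclin-dependent kinases, 18.4, and Acap2 and Txnl4a, a spliceosome component, 18.2 each, and Mtmr4, a lipid phosphatase, 17.7. All of these lay between -280 and 17 bp of the TSS, and none had a Ctrl promoter peak. With the exception of Rbm15, each of these 14 also had a promoter peak in the siSCR control list, for instance Denr with 17.9 and Ehmt1 with 11.8 on that list's own scale.

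Over all 1245 genes, 253 had a siSCR promoter peak (20.3% of the iKO genes and 65.9% of the siSCR genes). A siSeh1 promoter peak was present at 729 (58.6% of iKO and 26.5% of siSeh1 genes), and 497 were in neither list. At the level of single summits, 20.2% of the iKO promoter peaks lay under 240 bp from a siSCR summit, against 0.429% of iKO peaks over 1 kb from a TSS. With siSeh1 these shares were 56.9% and 1.48%. The iKO peaks that recurred in another Chd4 list were mostly promoter peaks, 256 of 342 for siSCR and 722 of 1019 for siSeh1, and of high score: 29.8% of the top decile had a siSeh1 summit and 0.986% of the last.

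The 7 promoter genes of Ctrl had low scores. They were Tmem254b, the pseudogene Tmem181b-ps, LOC108168459, Sec14l3, the olfactory receptor pseudogene Olfr1300-ps1, Btbd35f2 and Mageb18. Their scores ran from 2.94 to 3.66 and their ranks in the list from 436 to 991. LOC108168459, Btbd35f2 and Mageb18 are on chromosome X. None had an iKO promoter peak, and 0 of the 7 summits lay near a siSCR or siSeh1 summit.

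Of the 23 gene lists, all chosen with earlier results of these data known, endoplasmic reticulum stress genes had the highest share with an iKO promoter peak. Of 30 genes 15 had a promoter peak (50%, against 5.18% of protein-coding genes), with a median score of 7.51 against 4.78 over all protein-coding genes with one. Ctrl had 0 of 30, siSeh1 18 and siSCR 11, of which 8 were among the 15. Over all protein-coding genes the share was 11.8% in siSeh1 and 1.63% in siSCR. The folding machinery of the lumen was led by Hspa5 (19.6), followed by the disulfide isomerases Pdia4 (13.4), P4hb (10.4) and Pdia6 (4.62), the lectin chaperone Calr (11.3) and the BiP partners Dnajb11 (8.39), Sdf2l1 (7.80), Dnajc3 (7.51), Hyou1 (7.42) and Dnajb9 (5.49). Hsp90b1, the lumenal Hsp90, had 6.53 and Manf, a secreted stress-induced factor, 6.34. Among the signalling arms Eif2ak3, the kinase PERK, had 15.9, and the transcription factors Xbp1 and Atf4 had 6.49 and 5.24. In the narrower promoter windows, 11 genes of the list held an iKO summit and all 11 held CCAAT, as did 11 of the 16 without a summit. The ERSE was in 5 of the 11 with a summit (Calr, Dnajc3, Hsp90b1, Hspa5 and Pdia6) and in 3 of the 16 without (Canx, Creld2 and Syvn1). The split by window is not the split by promoter peak, and not all 30 genes are in it. P4hb and Sdf2l1, which had promoter peaks, were among the 16. Derl2, to which no iKO promoter peak was credited as the nearest gene, was among the 11 with a summit.

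Sterol and fatty acid synthesis genes came next, with 13 of 34 (38.2%) in iKO, 0 in Ctrl, 5 in siSCR and 24 in siSeh1, and a median score of 6.70. Over all protein-coding genes the share was 5.18% in iKO, 1.63% in siSCR and 11.8% in siSeh1. Along the cholesterol pathway, peaks included those at Hmgcs1 (9.27), which condenses HMG-CoA, Mvk (4.89) and Mvd (8.53) of the mevalonate steps, Idi1 (2.71), the squalene synthase Fdft1 (11.3), Sqle (6.70) and the later enzymes Msmo1 (5.70) and Nsdhl (6.49). Insig1, which holds back the processing of Srebf proteins, had 11.5, and Stard4, a cholesterol carrier, 14.8. Acly and Fasn of fatty acid synthesis had 5.59 and 3.93. All 8 genes of the list with a summit in their narrower promoter window held CCAAT, as did 13 of the 17 without one. Of the 8, 1 gene, Hmgcs1, held the sterol element. The split by window is not the split by promoter peak, and not all 34 genes are in it. Acly and Idi1, which had promoter peaks, were among the 17. Dhcr7, to which no iKO promoter peak was credited as the nearest gene, was among the 8. Stard4 and Fdft1 were not among the 8.

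The cell cycle lists are to be read against the shares of all protein-coding genes, 5.18% in iKO, 1.63% in siSCR and 11.8% in siSeh1. Mitosis genes had 9 of 30 (30%) in iKO, 0 in Ctrl, 4 in siSCR and 17 in siSeh1, with a median score of 9.38. They were Cdc25c (13.6), the phosphatase that starts mitosis, the kinetochore proteins Mis12 (10.9), Cenpf (10.4) and Cenpe (5.06), the checkpoint proteins Ttk (10.6), Bub1 (9.38) and Mad2l1 (4.74), Mki67 (7.42) and the kinase Aurka (7.0). Of the genes of entry into S phase 3 of 30 (10%) had a peak, namely E2f1 (7.83), E2f3 (5.79) and Ccne1 (3.39), against 4 in siSCR. Of the 8 inhibitors of cyclin-dependent kinases, Cdkn2d (8.39) and Cdkn3 (7.42) had one and Cdkn1a had none in any of the 4 Chd4 lists. Among 23 targets of p53, Sesn1 (4.74) and Rrm2b (3.93) had one (8.70%). The iKO counts of the S phase and p53 lists are small and close to the 5.18% of all genes.

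The shares of the next lists are to be read against 5.18% of all protein-coding genes in iKO and 1.63% in siSCR, and counts of 1 or 2 genes are close to them. Among chromatin genes, 2 of 15 members of NuRD had an iKO promoter peak, Gatad2a (9.48) and Mbd3 (5.59), both also present in siSCR. Of 30 genes of the BAF, CHD, trithorax and Polycomb groups 5 had one: the Polycomb genes Ezh2 (11.2), Suz12 (5.49) and Jarid2 (4.89) and the BAF genes Smarca2 (9.38) and Actl6a (4.30). Of 31 nucleoporin and transport genes 4 had one, Kpnb1 (15.5), Nup50 (6.65), Nup93 (6.46) and Xpo1 (6.34), and of 8 GATOR genes Wdr59 (4.74). Seh1l itself had no promoter, exon or intron peak in Ctrl or iKO, but 1 exon peak in siSCR and 3 in siSeh1. Chd4 had 0 promoter peaks in Ctrl and iKO and 2 exon peaks in iKO, against 6 exon peaks in siSCR and 7 in siSeh1.

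Of 24 neural stem cell factors 5 had an iKO promoter peak (20.8%) and 0 a Ctrl peak. They included the Notch effector Hes1 (3.46), Emx1 (3.17), Otx1 (2.71) and the receptor Notch2 (2.71), and the median score of the 5 was 3.17, below the 4.78 over all genes. The Notch, Wnt and Shh pathway list, which shares Hes1 and Notch2 with it, had 3 of 30. In lists of more differentiated or other cells the counts were near what 5.18% of all genes gives: 0 of 30 neurogenic and neuronal genes, 0 of 14 astrocyte markers, 0 of 14 microglia and endothelial markers and 1 of 14 oligodendrocyte markers. The 0 of the neurogenic list depends on the window. Its member Sox11 had an iKO peak of 28.5 at 1160 bp, just outside the 1 kb limit, and a promoter peak in siSCR and siSeh1. Ribosomal protein genes had 0 of 30, homeobox cluster genes 0 of 24, amino acid stress genes 1 of 30, and vesicle coat and translocation genes 2 of 30. Synaptic adhesion genes and neurotransmitter channels had 1 of 30 each, against 5.18% of all genes.

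**Figure D4:**
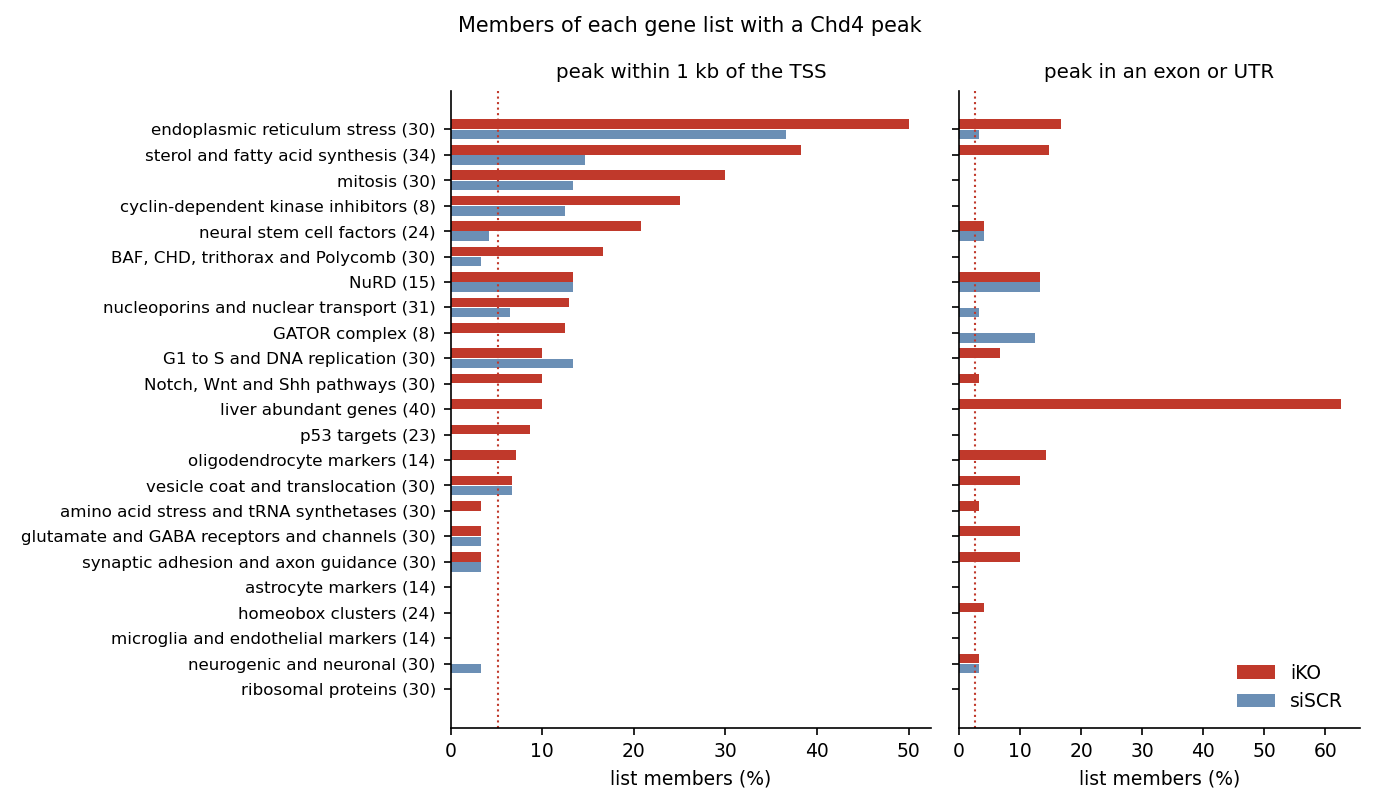
Percent of the members of each gene list (number of members in brackets) with a Chd4 peak within 1 kb of the TSS (left) or in an exon or UTR (right), in iKO and siSCR. Dotted lines mark the iKO shares of all protein-coding genes, 5.18% and 2.65%. Ctrl is not drawn because it had 0 promoter and 0 exon peaks in these lists. Endoplasmic reticulum stress genes stand at 50% on the left and liver abundant genes at 62.5% on the right. The lists were chosen with earlier results of these data known.

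Genes that liver transcribes at a high level often had an exon or UTR peak in iKO. Of 40 such genes 25 had an exon or UTR peak in iKO (62.5%), against 2.65% of all protein-coding genes. The list was chosen with earlier results of these data known, so these shares are a description and not a test. Ctrl had 0 of the 40, where the rate over all genes was 0.0548%, siSCR had 0 (0.256%) and siSeh1 had 2 (3.64%). The highest peak of the whole iKO list was of this kind: Apoe, an apolipoprotein also made by astrocytes, had a score of 49.8 in its exon 3 of 3, at chr7:19696797. Hp (haptoglobin) had 29.8 in exon 5 of 5, and Apoa1, the apolipoprotein of high-density lipoprotein, 18.9 in exon 4 of 4. Alb, the serum albumin gene, had 3 exon peaks, with 12.5 in exon 12, 9.65 in exon 4 and 6.18 in exon 8 of 15. Ahsg had 13.1 in exon 7 of 7, Fga 11.3 in exon 5 of 5, Hpx 11.3 in exon 10 of 10, and Serpina3k 12.3, Apob 9.48 and Cyp2e1 8.35 in their 3' UTRs. The list had 34 of the 655 exon and UTR peaks of iKO, with a median score of 6.47, of which 20 were among the first 1154 ranks and 16 in the last exon. Serpina1a, Serpina1b and Serpina1c are near-identical copies, so their peaks may share reads.

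Outside that list, the genes with most exon peaks in iKO were Scd1 (3), a fatty acid desaturase, and Gpx1, Cdo1, Selenop and Eef1a1 (2 each). The 655 exon and UTR peaks fell in 625 genes, and 22 genes had 2 or more. Of the 602 in transcripts with several exons 51% were in the last exon. High scores outside the list were at the single exon of Sox11, a transcription factor of immature neurons, with 28.5, and at the 3' UTR of Bhmt, an enzyme of homocysteine metabolism, with 25.8. Sox11 also had the highest score of the siSCR list (59.1) and of the siSeh1 list (149), each on its own scale. The cells' RNA is not measured here, so whether any of these genes was transcribed was not tested.

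Introns held peaks of long genes in both lists. In iKO 16.5% of protein-coding genes had an intron peak and in Ctrl 1.01%. Their median length was 77.6 kb in iKO and 159 kb in Ctrl, against 17.1 kb for all protein-coding genes. Ptprd, a synaptic receptor phosphatase, had 21 intron peaks in iKO, Gpc5 had 17 and Cntnap2, a neurexin-like adhesion protein, 16, with 0, 0 and 2 in Ctrl. Lsamp, a neural adhesion protein, had the most in Ctrl with 5, and 10 in iKO. Of 30 synaptic adhesion and axon guidance genes 24 had an iKO intron peak and 8 a Ctrl one, and of 30 receptor and channel genes 22 and 5. Per megabase of gene these lists had 4.60 and 5.46 iKO intron peaks, below the 5.69 over all protein-coding genes. In Ctrl the densities were 0.360 and 0.325 against 0.235.

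Repeats made up 55.9% of the Ctrl list and 48.2% of the iKO list, and 31.2% of iKO at equal length. LINE elements accounted for 33.9% of Ctrl (31.2 to 36.7) and 24.3% of iKO (23.7 to 24.9). Young LINE-1 families, which still carry copies able to move, led in Ctrl: L1Md_T was 9.10% of Ctrl and 3.39% of iKO, and L1Md_A 5.20% and 2.57%. L1Md_F2 differed less, at 4.07% and 3.56%. The highest Ctrl peak, with a score of 35.5, lay in an L1Md_T copy in an intron of Ctnnd2, which encodes a neuronal catenin, at chr15:30222047. Other Ctrl peaks among its 15 highest were in a B1_Mus1 SINE of an intron of Sfi1 (12.3), in L1Md_T near Actr3 (11.8), in an intron of D5Ertd579e (11.6) and in L1Md_A near Olfr596 (11.3). LTR elements took 12.3% and 14.2% and SINE elements 3.81% and 6.27%. Satellite repeats took similar shares of the full lists, 0.260% of Ctrl (0.0536 to 0.758) and 0.507% of iKO (0.416 to 0.612), with 0.652% of siSCR. These were 3 Ctrl and 108 iKO peaks, and 70 of the 108 were among the first 1154 iKO ranks. Major satellite, GSAT_MM, which forms the pericentromeric heterochromatin of mouse chromosomes, gave 85 of the 108. Of the 108, 72 (66.7%) had a siSeh1 summit under 240 bp away and 7 a siSCR summit. CpG islands outside other classes of the detailed annotation held 77 iKO and 0 Ctrl peaks, which allows a Ctrl share of up to 0.260% (3 counts of the total). Reads from repeats can map to many copies, and the labels do not say how these were handled.

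On chromosomes the lists also differed. Chromosome X held 23.7% of Ctrl peaks (274; 21.3 to 26.3) and 5.07% of iKO peaks (1079), and 1.91% of iKO at equal length. Chromosome 4 held 10.7% and 6.24%. Much of this came from a few stretches: 20 bins of 200 kb with 5 or more peaks held 228 Ctrl peaks (19.8%), of which 147 were on X in 12 bins and 52 on chromosome 4 in 4 bins. Outside these bins 127 of 926 Ctrl peaks were on X (13.7%). At chrX:126600001-126800000, near 4932411N23Rik, Ctrl had 20 peaks with scores up to 17.8 and iKO 2, and at chrX:94800001-95000000, near Zxda, 19 with scores up to 15.3 and iKO 0. The bin at chrX:31000001-31200000, in the Btbd35f family, had 19 and 2, and that at chr4:122000001-122200000 had 20 and 4. In siSCR these X bins, in the order named, held 4, 6 and 6 peaks, and the chromosome 4 bin held 23. Btbd35f18 was the gene nearest to 37 Ctrl peaks.

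In iKO 474 such bins held 2742 peaks (12.9%), spread more thinly. With bins of 3 or more peaks the direction turned, at 52.2% of iKO and 26.7% of Ctrl. Bins with 10 or more peaks held 14.3% of Ctrl and 0.695% of iKO. The unplaced contig Un_JH584304 held 71 iKO peaks, 0 Ctrl and 60 siSeh1 peaks, and chr9:3000001-3200000, where the highest peaks were in major satellite, held 37, 1 and 33.

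**Figure D5:**
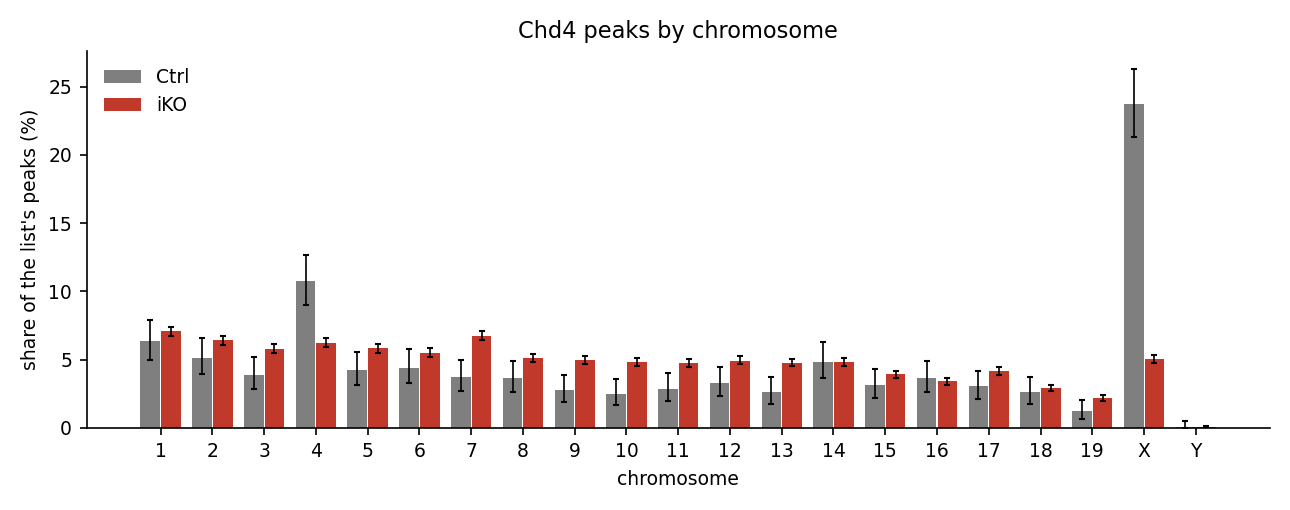
Share of each list's peaks (percent) by chromosome for Ctrl and iKO, with exact 95% binomial intervals for counting error. Chromosome X holds 23.7% of Ctrl and 5.07% of iKO peaks, and chromosome 4 10.7% and 6.24%.

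Few positions were shared. Summits under 240 bp apart numbered 14, which is 1.21% of Ctrl peaks (0.665 to 2.03) and 0.0657% of iKO peaks, and the median distance from a Ctrl peak to the nearest iKO peak was 32568 bp. The gaps of shared summits ran from 16 to 235 bp, and the nearest pair outside the limit was 257 bp apart. Of the 14, 10 were intergenic and 4 in introns, 6 were in LINE elements, 4 were on X and 4 on chromosome 4, and 0 were within 1 kb of a TSS. The strongest in Ctrl lay in an L1Md_A copy at chr4:36611639 near Mir876, with ranks of 29 in Ctrl and 243 in iKO. Others were in L1Md_T near Gm5524 (ranks 80 and 249), in GSAT_MM near Mir101c (181 and 160) and in RLTR10 near AY761185 (385 and 199). The remaining 10 lay nearest to 4932411N23Rik, Serpinb3a, Hdgfl3, Tecrl, 3632454L22Rik, Zfp980, Pou3f4, 9530002B09Rik, Btbd35f3 and Lingo2. Ctrl shared more with siSCR, 61 peaks (5.29%), and 29.3% of its top decile by score, against 1.65% with siSeh1.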

How the data were processed

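Chd4 ChIP-seq peaks were compared in 4 groups of 1 library, of which iKO against Ctrl is the comparison reported. The authors deposited peak lists annotated with HOMER on mm10, per the file headers, with each peak a single summit position and a Peak Score of unstated scale. The other measure, the distance to the TSS in bp, is also as the authors deposited it. The submitters' processing notes list Bowtie2 and HOMER with no version, and human builds beside them. The peak caller, its threshold, pooling and read numbers are not stated there, so the depth is unknown.

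From these lists classes, nearest genes, scores and distances were tallied in pandas 2.3.3 and numpy 2.4.6 under Python 3.11.15. A promoter peak lay within 1 kb of a TSS and was credited only to the gene of the nearest TSS. A gene that shares a promoter with another can thus go uncounted. Summits under 240 bp apart were shared. On simulated lists 200 of 200 pairs planted under 240 bp apart were recovered, a result set by construction that checks only the code. On the real lists bedtools 2.31.1 gave the same 14 shared peaks. Shares carry exact Clopper-Pearson intervals of 95% (scipy 1.17.1). With 1 library a group there are no replicates and no p-value. Ties in Peak Score were ordered by position. Gene spans, symbols and promoter windows are from RefSeq (GRCm38.p6), to which 99.9% of the gene identifiers of both lists matched. The 23 gene lists, the 12 motifs and the comparison itself were chosen with earlier results of these data known. Genes named were the 15 highest promoter genes of iKO, the 10 with most exon peaks, the 5 highest peaks of a class, up to 8 members of each gene list, every promoter gene and shared peak of Ctrl, and Seh1l, Chd4 and Cdkn1a. Some genes that this rule takes are not reported here. Predicted, Rik and microRNA symbols were left out, except for Ctrl promoters and shared peaks. Members beyond 8 and the genes nearest to dense bins were named after their values were seen. Alternatives changed the score limit, list length, chromosomes, repeats, clustering, dense bins, control list and windows.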

Additional observations from a re-analysis of the deposited data

Results flagged for a closer look

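For 3 shares the difference from Ctrl to iKO had the opposite sign to that from siSCR to siSeh1; with 1 library a group this was not tested, and the perturbed lists were much longer than their controls in both experiments (21294 against 1154 peaks and 26935 against 2606). The promoter share was 0.607% in Ctrl and 5.96% in iKO, a difference of 5.36 percentage points, and 15% in siSCR and 10.5% in siSeh1, a difference of -4.55 points. The number of promoter peaks was larger in the perturbed list in both, 1270 against 7 and 2815 against 391, so only the share went the other way. The share of peaks in 200 kb bins with 5 or more peaks differed by -6.88 points between Ctrl (19.8%) and iKO (12.9%) and by 8.78 points between siSCR (11.6%) and siSeh1 (20.3%). This held only at that limit: in bins of 3 or more peaks both perturbed lists were higher (52.2% against 26.7% and 63.4% against 16.1%), and in bins of 10 or more both were lower (0.695% against 14.3% and 0.824% against 6.64%). The chromosome X share differed by -18.7 points between Ctrl (23.7%) and iKO (5.07%) and by 1.52 points between siSCR (4.07%) and siSeh1 (5.59%).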

How the results depend on the processing

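Of 15 results under 124 alternatives, 76 values stayed near their first value, 41 moved and 7 turned direction; share differences are iKO minus control in percentage points. With siSCR as the control the promoter (-9.04), CpG island (-0.367), intergenic (1.80) and dense-region (1.33) differences turned direction. These are for full lists of unequal length (21294 and 2606 peaks), and iKO at the length of siSCR was not run. The exon and UTR difference was 0.236, the repeat difference -1.34, the length ratio 8.17 and the shared peaks 342. With iKO at the length of Ctrl the intron difference turned to -7.63; the promoter difference was 40.8, exon and UTR 3.90, intergenic -35.3, repeat -24.7, CpG island 1.73 and dense-region -12.5, with a ratio of 1 by construction, 474 gained promoter genes, 5 shared peaks, 16 liver abundant genes with an exon peak and CCAAT in 95.4% of windows. With scores of at least 4, which assumes a common scale, these were 14.6, 2.89, -20.9, -14.5, 0.720 and -18.3, with a ratio of 15.8, 800 gained genes, 3 shared peaks and CCAAT in 90.2%. Without repeats the promoter difference was 10.2, exon and UTR 3.18, intergenic -19.6, CpG island 0.698 and dense-region -10.4, with a ratio of 21.7 and 5 shared peaks; the repeat share then has no value. Without bins of 5 or more Ctrl peaks the intergenic difference was -8.08, intron 0.916, the ratio 22.9, and the dense-region difference 12.8, turned by construction. Dense bins of 10 or more peaks gave -13.6 and of 3 or more 25.6, which turned direction. Promoter windows of 2 kb and 5 kb gave differences of 6.17 and 7.89, and 5 kb gave 2474 gained genes. Shared limits of 100 and 1000 bp gave 8 and 36 peaks. For these changes the cause was not tested, other than where construction sets it. The 42 values for CCAAT and the gene lists were added after seeing the data; the endoplasmic reticulum stress, sterol and mitosis counts stayed within 1.5 times under every alternative run for them. No paired analysis was possible because each group has 1 library, and no library could be left out. Unknown depth limits every statement on absent peaks.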
